A study of Ovis aries with 14 samples.

Results

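The genes described here are 6 that were listed with higher values after prenatal testosterone in the fetal ovary and in at least 1 of the adult ovary tables: TENM1, LRRN1, LRFN5, GPR22, RND1 and TMSB15A. They were taken by symbol, and each was found in the fetal table of 16513 genes, in the first adult table of 15863 and in the second adult table of 16074, so they are 6 of the 15175 genes present in all 3 tables. Whole frozen ovaries of wild-type Suffolk sheep were sequenced as bulk RNA. The treated animals were born to, or carried by, ewes injected in the muscle with testosterone propionate in cottonseed oil between days 30 and 90 of gestation, and the labels call the others controls without saying what their mothers were given. The fetal groups, 3 controls and 3 testosterone samples, were collected at day 90, the last day of the treatment window, and the adult groups, 4 controls and 4 testosterone samples, at year 2, with no label for the stage of the ovarian cycle. The series text counts 3 adult controls and 4 treated, where the labels, followed here, give 4 and 4, and each adult table holds 3 and 3. All animals shared breed and genotype, and the labels do not relate the samples to mothers or litters, so the p-values below measure only the spread between these samples.

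Testosterone is a steroid hormone that changes the transcription of its target genes, and aromatase can convert it to oestradiol. Sheep exposed to it before birth are used as a model of polycystic ovary syndrome. The 6 genes fall into 3 kinds by what their proteins are known to do, mostly from work on brain and cultured cells. TENM1, LRRN1 and LRFN5 encode membrane proteins of cell contact. Teneurin-1, from TENM1, binds latrophilin receptors on neighbouring cells. LRRN1 carries leucine-rich repeats and an immunoglobulin domain outside the cell, and LRFN5 is a synaptic adhesion protein that binds receptor tyrosine phosphatases of the LAR family. GPR22 is a G protein-coupled receptor with no agreed ligand. RND1 and TMSB15A act on the actin cytoskeleton: RND1 is a small GTPase that stays bound to GTP, opposes RHOA and binds plexins, and TMSB15A is a beta-thymosin that holds actin monomers.

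The deposited values are normalized counts, in which the reads of a gene are scaled by 1 factor per library. Every value was a whole multiple of 1 step, which gave back the reads, between 22.6 and 33.4 M per library, and all 14 libraries were then put on 1 common scale by median-of-ratios size factors. All levels below are normalized counts on that scale, and differences are in log2 of the value plus 1. The adult samples differed widely in markers of the corpus luteum: OXT, which luteal cells of sheep express strongly, was at 105432, 122264 and 68252 in control 6 and testosterone 4 and 7 and at 24.1 to 122.8 in the other 11 libraries. MYH11, a smooth muscle myosin, had 305554 in control 4, above the 23389 to 122417 of the other 7 adult libraries. In whole tissue, fewer cells of a type and less RNA per cell cannot be told apart.

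The choice of the 6 genes used the differences between testosterone and control, so those values are a description and carry no test. Of 15354 genes in the fetal table and at least 1 adult table, 899 were higher with a p-value under 0.05 in the authors' deposited fetal table, and 19 of those were also higher at that level in an authors' deposited adult table. Those 19 hold 5 of the members together with other named genes that include CORIN, EMB, LAMA2, PDGFRA and CCNG1. RND1 lies just outside, with p = 0.0856 and p = 0.0531 in the authors' deposited adult tables. Nearest to the limit at the fetal age were GPR22 and TENM1, with p = 0.0304 and p = 0.0221 in the authors' deposited fetal table. GPR22 has no adjusted p there. Of the members LRRN1 alone was higher in the authors' deposited fetal table, with an adjusted p under 0.05, where 1.08% of all genes were (1 of 6), and in the authors' deposited adult tables none of the 6 was, where 0.0126% and 0.0187% of all genes were.

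Among the surface adhesion genes, TENM1 (ENSOARG00000014221) had 320.2, 321 and 379 normalized counts in fetal controls 1, 2 and 3 and 454, 368 and 586 in fetal testosterone samples 1, 2 and 3. Its adult values were 102, 120.1, 121 and 59.9 in controls 4, 5, 6 and 7 and 148, 479, 246 and 174 in testosterone samples 4, 5, 6 and 7. At the fetal age the groups overlapped, because testosterone 2 lay below control 3, while every adult testosterone library lay above every adult control. Adult testosterone 5 was the highest adult library, close to the fetal testosterone level. The log2 difference between testosterone and control was 0.44 (SE 0.21) in the fetuses and 1.26 (SE 0.44) in the adults, where the SE of a member's difference is taken from its own libraries, with a ratio of means of 1.38 and 2.59. The order of group means was fetal testosterone (469 ± 109.7, SD), fetal control (340.2 ± 33.8), adult testosterone (262 ± 150.4) and adult control (101 ± 28.7), with n = 3 per fetal and n = 4 per adult group. In that order only the adult pair did not overlap.

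LRRN1 (ENSOARG00000014093) had 792, 858 and 331 normalized counts in fetal controls 1, 2 and 3 and 2091, 2104 and 2701 in the fetal testosterone samples. Adult levels were 1342, 2401, 1749 and 2102 in controls 4 to 7 and 2224, 5757, 5099.9 and 1825 in testosterone 4 to 7. The fetal groups were fully apart, with control 3 the lowest library of all 14. In the adults testosterone 5 and 6 stood above every control, and testosterone 4 and 7 lay among the controls. The log2 difference was 1.91 (SE 0.46) in the fetuses and 0.83 (SE 0.46) in the adults, with ratios of means of 3.48 and 1.96. The group means ran from adult testosterone (3727 ± 1990.0, SD, n = 4) through fetal testosterone (2299 ± 349, n = 3) and adult control (1898 ± 457, n = 4) to fetal control (660.3 ± 287, n = 3), and of these neighbours only the last pair did not overlap.

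LRFN5 (ENSOARG00000008960) had 856, 885 and 947 normalized counts in the fetal controls and 1364, 1203 and 985 in the fetal testosterone samples. The adult controls 4 to 7 had 126, 297, 175 and 309, and testosterone 4 to 7 had 254, 544, 594 and 257. The fetal groups did not overlap, by a gap of fetal testosterone 3 over control 3 that was small beside the spread of the testosterone group. In the adults testosterone 5 and 6 were again the libraries above all controls, as for LRRN1. The log2 difference was 0.39 (SE 0.14) in the fetuses and 0.84 (SE 0.46) in the adults. Group means were 1184 ± 190.1 and 896 ± 46.0 (SD, n = 3) in fetal testosterone and control and 412 ± 182 and 227 ± 90.6 (n = 4) in adult testosterone and control. In this order of levels the adult pair overlapped and the other neighbours did not.

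**Figure D1:**
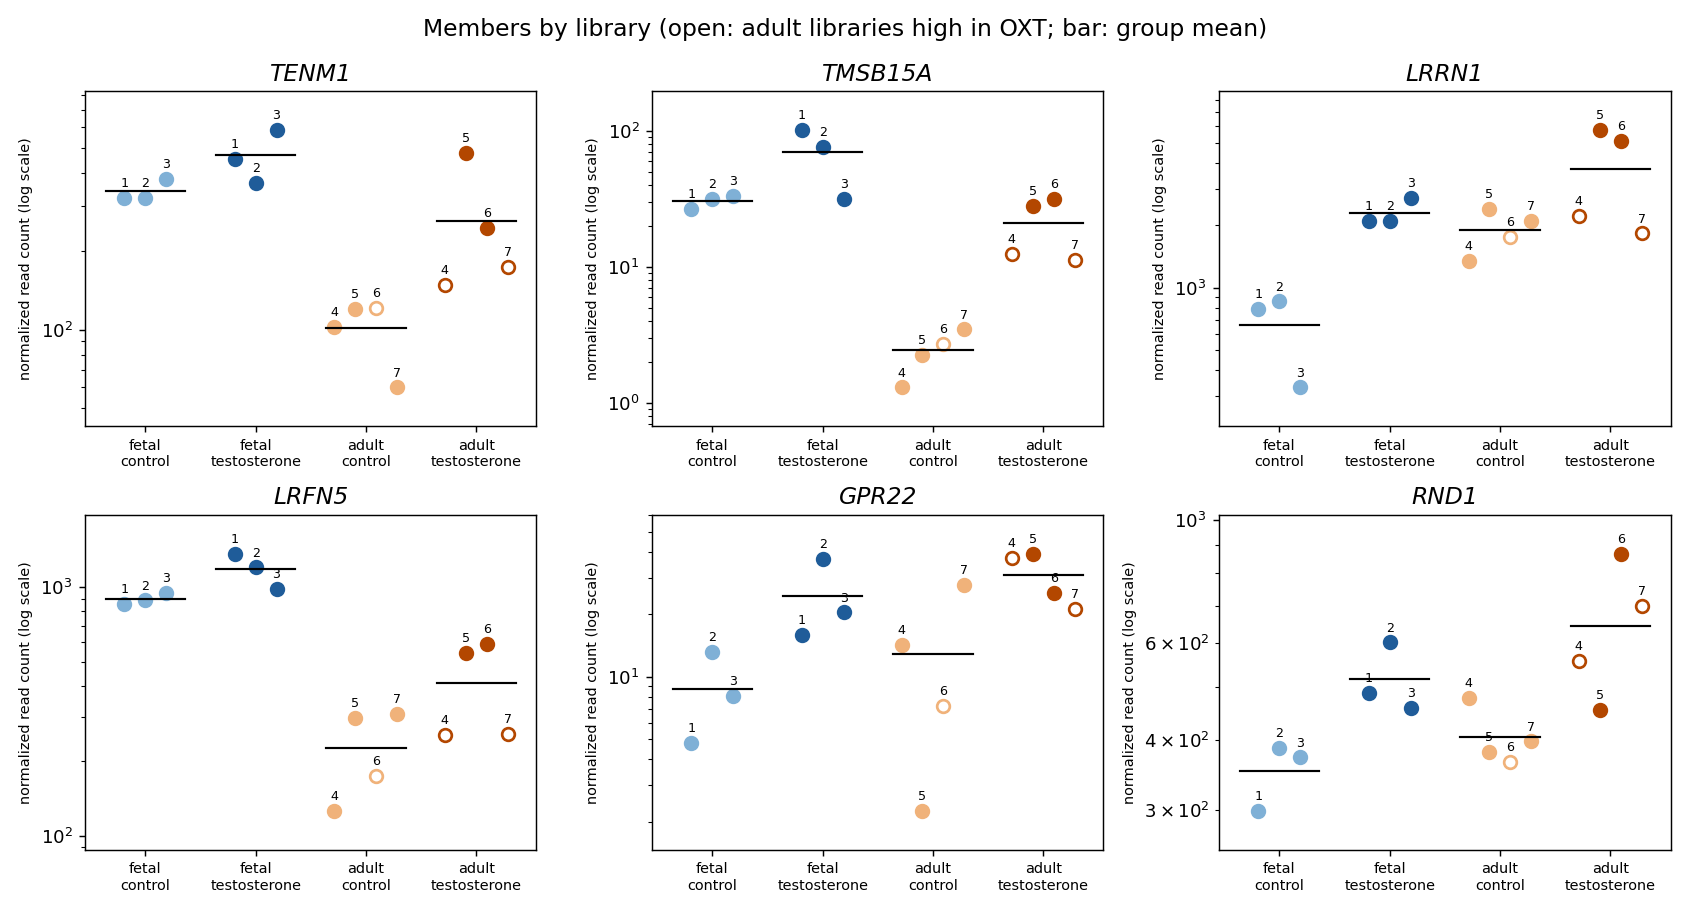
Normalized counts of the 6 genes on the common scale of 14 libraries (log axis), 1 point per library, in fetal control, fetal testosterone, adult control and adult testosterone samples. Bars mark group means and open points mark the 3 adult libraries with OXT from 68252 to 122264. TENM1 and TMSB15A separate the adult groups, and LRRN1, LRFN5, GPR22 and RND1 separate the fetal groups.

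GPR22 (ENSOARG00000005683), the receptor, was sparse. It had 4.78, 13.2 and 8.11 normalized counts in fetal controls 1 to 3 and 15.8, 36.9 and 20.4 in fetal testosterone samples 1 to 3, which rest on 5 to 41 reads per library. Its adult levels were 14.3, 2.24, 7.20 and 27.6 in controls 4 to 7 and 37.3, 39.1, 25.4 and 21.3 in testosterone 4 to 7, from 2 to 39 reads. The fetal groups did not overlap, and in the adults control 7 lay above testosterone 6 and 7. The log2 difference was 1.40 (SE 0.51) in the fetuses and 1.57 (SE 0.70) in the adults. Over summed reads the scaled ratio was 2.76 in the fetuses, with a 95% interval of 1.79 to 4.37, and 2.52 in the adults, with an interval of 1.77 to 3.64. These intervals cover counting error only. Its group means were 30.8 ± 8.77 in adult testosterone, 24.4 ± 11.1 in fetal testosterone, 12.8 ± 11.0 in adult control and 8.68 ± 4.22 in fetal control, and each overlapped its neighbour in that order. Without control 5, the library of lowest GPR22, the adult log2 difference was 1.01.

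In the RefSeq annotation ARS-UI_Ramb_v3.0 GPR22 lies within the span of COG5, a gene of a Golgi tethering complex. The labels do not state that strand was kept, so reads of the 2 genes cannot be told apart where they overlap. TENM1 and LRFN5 overlap entries of that annotation named by LOC numbers, so the same limit holds for them. COG5 had 1641 to 1835 normalized counts in fetal controls and 1740.3 to 1842 after testosterone. Adult levels of COG5 were 1041 to 1543 in controls and 982 to 1367 after testosterone. Its log2 difference between testosterone and control was 0.03 in the fetuses and -0.02 in the adults, and neither passed the threshold (limma adjusted p = 0.913 and 0.9999).

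RND1 (ENSOARG00000019098) had 298, 388 and 373 normalized counts in fetal controls 1 to 3 and 488, 601 and 458 in fetal testosterone samples 1 to 3. The adult controls 4 to 7 had 477, 381, 365 and 398, and testosterone 4 to 7 had 556, 454, 868 and 700.1. The fetal groups were apart, and in the adults only testosterone 5 fell among the controls, below control 4. For RND1, testosterone 5 was thus the lowest treated adult, where for TENM1, LRRN1 and GPR22 it was the highest. The log2 difference was 0.54 (SE 0.17) in the fetuses and 0.63 (SE 0.22) in the adults. Group means were 644 ± 179.9 in adult testosterone, 516 ± 75.3 in fetal testosterone, 406 ± 49.6 in adult control and 353 ± 48.0 in fetal control (SD), and each overlapped the next.

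TMSB15A (ENSOARG00000000561) had the lowest counts in the adult controls. It had 26.8, 31.6 and 33.3 normalized counts in fetal controls 1 to 3 and 101, 76.4 and 31.5 in fetal testosterone samples 1 to 3. The adult values were 1.30, 2.24, 2.70 and 3.46 in controls 4 to 7, from 1 to 3 reads each, and 12.4, 28.1, 31.5 and 11.3 in testosterone 4 to 7, from 9 to 31 reads. Fetal testosterone 3 lay within the controls, while the adult groups were fully apart. The log2 difference was 1.02 (SE 0.51) in the fetuses and 2.58 (SE 0.42) in the adults. The fetal difference was 1.51 without testosterone 3 and 0.68 without testosterone 1. Over summed reads, 9 in adult controls and 79 after testosterone, the scaled ratio was 8.73 with a 95% counting interval of 4.38 to 19.8, and the fetal ratio was 2.26. Group means were 69.7 ± 35.4 in fetal testosterone, 30.6 ± 3.40 in fetal control, 20.8 ± 10.5 in adult testosterone and 2.42 ± 0.902 in adult control (SD), and only the last pair did not overlap. The RefSeq table lists TMSB15B and not TMSB15A, and beta-thymosin genes are close copies of each other, so which copy the reads come from is uncertain.

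Across the 6 genes the fetal groups did not overlap for 4, namely LRRN1, LRFN5, GPR22 and RND1, where 9.25% of all 15175 genes had every fetal testosterone library above every control. The adult groups did not overlap for 2, TENM1 and TMSB15A, where 0.31% of all genes did. No member, and none of the 15175 genes, had every testosterone library above every control at both ages (0.0%). The members were chosen on these differences, so nothing is read from their counts.

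The authors' deposited tables give the same differences for 3 against 3 libraries each. The adult tables share control 4, control 6, testosterone 5 and testosterone 6, and are not independent. For TMSB15A the log2 fold change in the authors' deposited tables was 1.19 in the fetal, 3.63 in the first adult and 3.26 in the second adult table. For GPR22 the authors' deposited tables gave 1.49, 2.22 and 0.84, so its adult value was over 2 times smaller with control 7 and testosterone 7 in place of control 5 and testosterone 4. For LRRN1 they gave 1.8, 1.26 and 1.31 in the authors' deposited tables, and for TENM1 0.47, 1.31 and 1.69. LRFN5 had 0.40, 1.22 and 1.22 and RND1 0.55, 0.63 and 0.72 in the authors' deposited tables.

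Among the treated adults LRRN1, LRFN5, TMSB15A and TENM1 were higher in the libraries low in OXT than in those high in OXT. How many of all genes separate these libraries was not counted, so nothing is read from the members that do. The 2 treated libraries low in OXT, testosterone 5 and 6, had 5099.9 and above for LRRN1, and testosterone 4 and 7, high in OXT, had 2224 and below. LRFN5 lay at 544 to 594 in the former and 254 to 257 in the latter. TMSB15A lay at 28.1 to 31.5 and 11.3 to 12.4, and TENM1 at 246 to 479 and 148 to 174. GPR22 and RND1 overlapped between these libraries. Among controls, control 6, the only control high in OXT, lay within the range of the other controls for LRRN1, LRFN5, GPR22 and TMSB15A. Without the 3 libraries high in OXT the adult log2 difference was 1.93 for TENM1, 3.23 for TMSB15A, 1.53 for LRRN1 and 1.34 for LRFN5, and 1.53 for GPR22 and 0.60 for RND1. Of the luteal marker list 9 of 10 genes were measured, none at 0 in every library and LHCGR not listed by name. Their sum ran from 8467 to 257405 in adult controls and from 6670 to 279421 in adult testosterone samples, and its part in the members' values was not tested.

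In the fetuses, 2 marker lists were apart between the groups. The sum of the smooth muscle markers, 9 of 10 measured, was 50025 to 63488 in controls and 69155 to 92277 after testosterone. That of the granulosa markers, 12 of 16 measured with FOXL2, CYP19A1, INHBB and IHH not listed by name, was 25858 to 28626 in controls and 30269 to 35723 after testosterone. The neuron markers, 14 of 22 measured, had sums of 10875 to 13623 and 10017 to 11918, and the Schwann and glial markers, 11 of 12 measured, 3592 to 4293 and 3281 to 3789, and both overlapped. Limma called no gene of these or the other 7 marker lists for testosterone. Of all genes it called 0.0182% in the fetuses and 0.0127% in the 8 adults. In the fetuses 6 of the 9 smooth muscle and 5 of the 12 granulosa markers had an unadjusted limma p under 0.05, where 9.76% of all genes had one. DESeq2 called 3 smooth muscle, 2 stromal and 1 surface epithelium marker higher in the fetuses, and 1 Schwann, 2 theca and 1 luteal marker lower. It called 1.58% of all genes there in either direction. The luteal marker called, CYP11A1, is also 1 of the 2 theca markers called. No marker of these lists was at 0 in every library of a group. Their part in the fetal values of the members was not tested.

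The level at the 2 ages was not used to choose the genes, and it was tested by limma on all 14 libraries with treatment as a term. Of the 6 genes 3 were lower in the adult ovary and 1 was higher, where 23.0% of all 15175 genes were lower and 22.6% higher. The share of all genes that changed with age, 45.6%, is large. Each age comes from its own deposited tables, so age and any difference in how the tables were made cannot be told apart. All 6 genes passed the filter on low values, a mean of at least 10.

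LRFN5 fell most firmly, from 1040.1 ± 200.4 (SD, n = 6) in the fetal to 320 ± 166 (n = 8) in the adult ovary, a log2 difference of -1.85 (SE 0.26, 95% interval -2.39 to -1.30, limma adjusted p = 6.28e-05). Its highest adult library, at 594, lay below its lowest fetal library, at 856, which 12.2% of all genes also show. No member had every adult library above every fetal one, where 11.2% of all genes did. TMSB15A fell from 50.1 ± 31.1 to 11.6 ± 12.0 (log2 difference -2.46, SE 0.41, interval -3.33 to -1.59, limma adjusted p = 0.000276). TENM1 fell from 405 ± 101 to 181 ± 132 (log2 difference -1.38, SE 0.28, interval -1.98 to -0.78, limma adjusted p = 0.00123). For both genes the adult libraries overlapped the fetal ones, through treated adults at fetal levels. These were testosterone 5 and 6 for TMSB15A and testosterone 5 alone for TENM1.

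LRRN1 rose, from 1480 ± 942 in the fetal to 2813 ± 1656 in the adult ovary (log2 difference 1.07, SE 0.32, interval 0.39 to 1.75, limma adjusted p = 0.0138). RND1 had 434 ± 105 and 525 ± 177 (log2 difference 0.25, SE 0.15, interval -0.08 to 0.57, limma adjusted p = 0.204). GPR22 had 16.5 ± 11.4 and 21.8 ± 13.3 (log2 difference 0.28, SE 0.45, interval -0.68 to 1.25, limma adjusted p = 0.634). Neither passed the threshold, and the interval of GPR22 still includes a change of more than 2-fold.

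Among controls alone the same 4 genes passed, where 20.9% of all genes did. The log2 differences were -1.79 for TENM1 (limma adjusted p = 0.00903), -3.24 for TMSB15A (limma adjusted p = 0.00596), 1.61 for LRRN1 (limma adjusted p = 0.0213) and -2.07 for LRFN5 (limma adjusted p = 0.00695). Among testosterone samples alone, a comparison added after the data were seen, 1 passed, where 23.1% of all genes did. That gene was LRFN5, with -1.62 (limma adjusted p = 0.0145). The calls of TENM1 (-0.97, limma adjusted p = 0.123), TMSB15A (-1.68, limma adjusted p = 0.0657) and LRRN1 (0.53, limma adjusted p = 0.379) were lost. Whether the age difference itself differs between treated and control animals was not tested, so the lost calls are not read as such a difference. Controls alone and testosterone samples alone each hold 1 side of the difference that chose the members. How far these 2 estimates lie apart is therefore set by the choice in part, and neither is as independent of it as the fit on all 14 libraries.

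**Figure D2:**
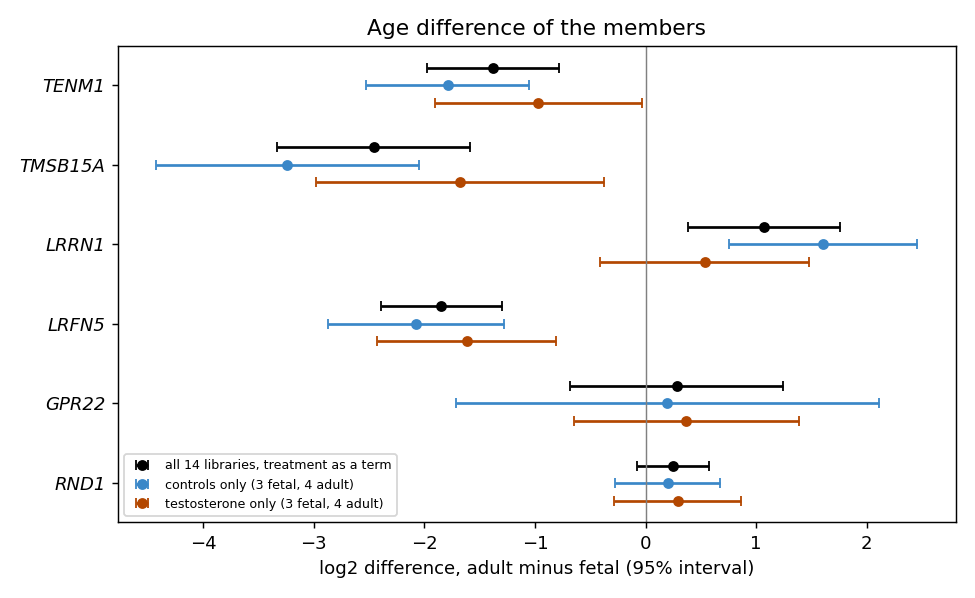
Difference between adult and fetal level of the 6 genes, in log2 of normalized count plus 1, with 95% intervals from limma, for all 14 libraries, for controls only and for testosterone samples only (3 fetal and 4 adult each). Points left of 0 are lower in adults: LRFN5, TMSB15A and TENM1 lie left and LRRN1 right in all 3 estimates, while the intervals of GPR22 and RND1 cross 0 in each. The interval of LRRN1 for testosterone samples only, -0.41 to 1.48, also crosses 0.

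Cell type markers also differed between the ages, where 23.0% of all genes were lower and 22.6% higher in the adults. Germ cell and oocyte markers, 11 of 18 measured with DAZL, POU5F1, NANOG, SYCP1, ZP3, FIGLA and NOBOX not listed by name, summed to 24972 to 53161 in fetal and 1084 to 6808 in adult libraries, and 10 of the 11 fell. Neuron markers summed to 10017 to 13623 in fetal and 3883 to 9845 in adult libraries, and 6 of 14 fell while 2 rose. UCHL1 made up much of the fetal sum, with means of 7199 in fetal and 1866 in adult libraries. No sum was taken without UCHL1, so a fall of neuron markers as a whole is not read from it. Schwann and glial markers summed to 3281 to 4293 in fetal and 1654 to 9287 in adult libraries, with 2 of 11 lower in the adults. Macrophage markers, all 10 measured, summed to 3229 to 4880 in fetal and 3206 to 48396 in adult libraries, and 9 rose. Their sum was 45897 to 48396 in the 3 adult libraries high in OXT and 3206 to 14771 in the other adult libraries. Higher in the adults were also 6 of 8 theca and steroid, 6 of 9 luteal, 7 of 9 smooth muscle, 4 of 9 stromal, 3 of 9 endothelial and 5 of 12 granulosa markers, and lower were 3 of 7 surface epithelium and 2 of 12 granulosa markers. CYP11A1, STAR, HSD3B1 and SCARB1 belong to both the theca and the luteal list and count in each. The part of these cell types in the age differences of the members was not tested.

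The closest relatives of the 6 genes were looked for by symbol, and 9 of 15 were listed in all tables. TENM2, TENM4, TMSB4X, TMSB10, TMSB15B and LRFN4 were not analysed here. None of the 9 passed the limma threshold for testosterone at either age, and neither DESeq2 nor edgeR called any. Of all genes limma called 0.0182% in the fetuses and 0.0127% in the 8 adults, and DESeq2 called 1.58% and 0.0444%. With shares so low, the absence of calls is not read as a lack of response. TENM3, a second teneurin, had 1503 in fetal controls and 1541 after testosterone, and 627 and 484 in the adults. LRRN3 had 2513 and 2614 in the fetuses and 269 and 555 in the adults (log2 difference 1.05, SE 0.41, limma adjusted p = 0.9999). LRRN2 had 2445 and 2670 in the fetuses and 1490 and 1174 in the adults.

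With age, 6 of these 9 relatives were lower in the adult ovary and none was higher, where 23.0% of all genes were lower and 22.6% higher. TENM3 fell as TENM1 did, from 1522 to 556 (log2 difference -1.61, SE 0.29, limma adjusted p = 0.000586). LRRN2 (-1.03, SE 0.24, limma adjusted p = 0.00368) and LRRN3 (-2.82, SE 0.27, limma adjusted p = 2.14e-06) fell, where LRRN1 rose. LRRN4 had -2.72 (SE 1.09, limma adjusted p = 0.0552). LRFN1 (-1.60, limma adjusted p = 0.00363) and LRFN2 (-3.02, limma adjusted p = 0.00121) fell, as LRFN5 did, and LRFN3 had 0.06 (limma adjusted p = 0.865). RND2 fell by 0.95 (limma adjusted p = 0.000407) and RND3 had -0.34 (limma adjusted p = 0.390), beside 0.25 for RND1.

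**Figure D3:**
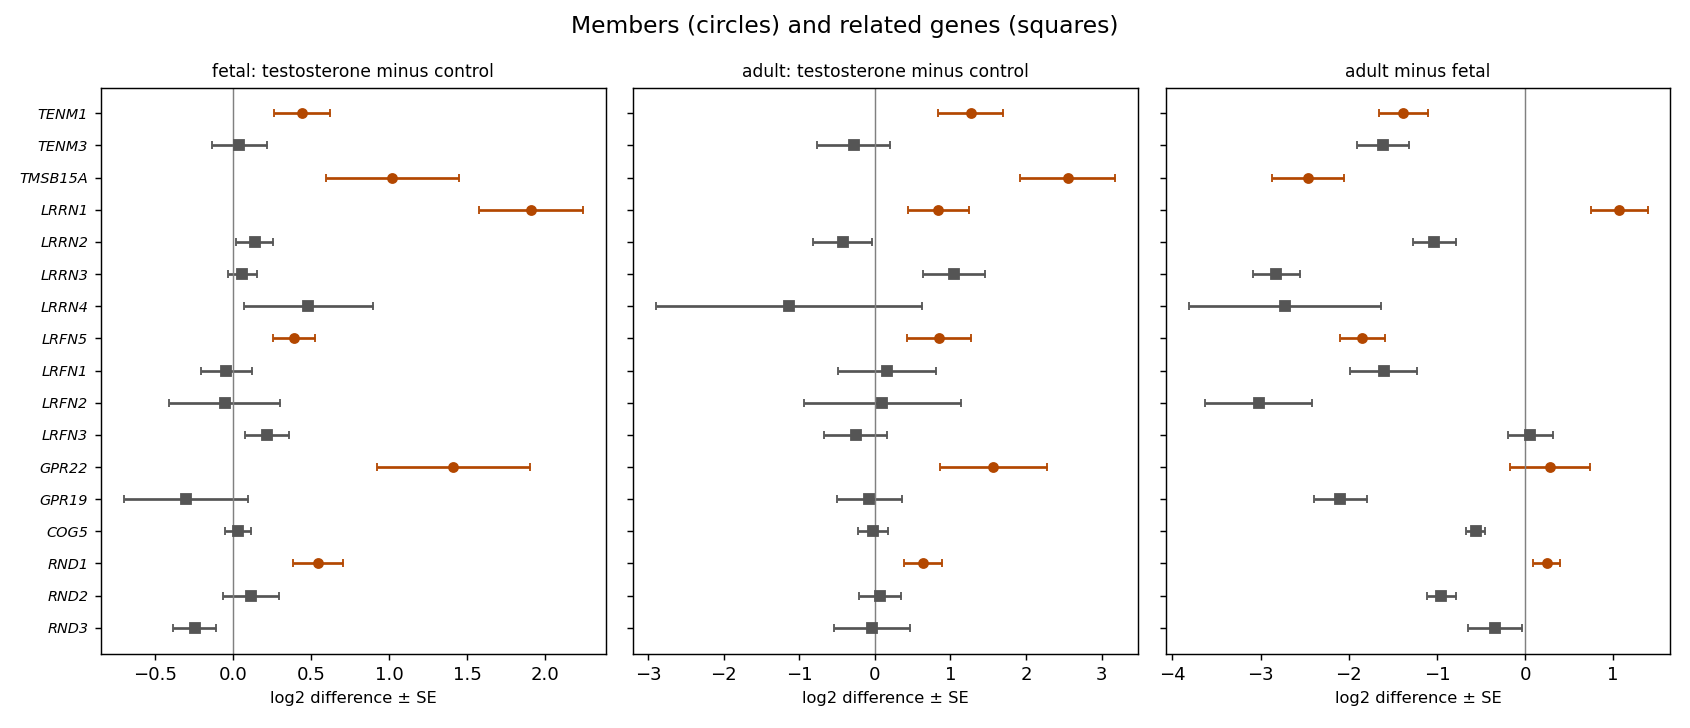
Log2 differences with standard errors from limma for the 6 genes (circles) and for their listed relatives, GPR19 and COG5 (squares), for testosterone minus control in the fetuses, testosterone minus control in the adults, and adult minus fetal. The 6 genes were chosen for values right of 0 in the testosterone panels; LRRN1 lies right of 0 with age while LRRN2 and LRRN3 lie left.

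The genes that act with the members were followed in lists that leave the members out. Neither limma nor edgeR called any gene in these 6 lists for testosterone at either age, where limma called 0.0182% of all genes in the fetuses and 0.0127% in the 8 adults. DESeq2 called 1, SLITRK1, at the fetal age, where it called 1.58% of all genes, and none in the adults, where it called 0.0444%. SLITRK1, a leucine-rich repeat adhesion gene of synapses, had 15.3 in fetal controls and 82.2 after testosterone (log2 difference 2.31, SE 0.38, limma adjusted p = 0.150, DESeq2 adjusted p = 0.000118) and 39.8 and 11.2 in the adults. In the fetuses an unadjusted limma p under 0.05 was found for 0 of 11 teneurin, latrophilin and FLRT genes, 2 of 9 actin monomer genes, 3 of 25 synaptic adhesion genes, 3 of 20 RND, RHOA and plexin genes, 1 of 5 genes of the GPR22 kind and locus and 2 of 15 androgen-responsive genes, where 9.76% of all genes had one. In the adults it was found for 1 of 23 synaptic adhesion genes, LRRN3, and for none of the other 5 lists, where 0.806% of all genes had one. The median log2 difference of the lists ran from -0.17 for the teneurin list to 0.06 for the synaptic list in the fetuses, beside -0.02 for all genes tested, and from -0.15 for the actin list to -0.02 for the RND list in the adults, beside -0.01.

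Between the ages more genes of these lists passed, as did 45.6% of all genes. Of 10 measured teneurin, latrophilin and FLRT genes 6 were lower and 2 higher in adults, with a median log2 difference of -1.27 beside 0.02 for all genes. UNC5D, a netrin receptor that binds FLRT proteins, fell from 287 to 31.5 (-3.35, limma adjusted p = 6.07e-05), as did UNC5C, a receptor of the same family, from 1038 to 323 (-1.83, limma adjusted p = 0.0002) and the latrophilin ADGRL3 from 325 to 69.1 (-3.08, limma adjusted p = 0.000435). Of 22 synaptic adhesion genes 13 were lower and 2 higher, with a median of -1.24. LRRC4B fell from 831 to 44.5 (-4.45, limma adjusted p = 1.3e-06), and PTPRD, a LAR-family phosphatase of the kind LRFN5 binds, from 2314 to 778 (-1.66, limma adjusted p = 2.02e-05). SLITRK2 went the other way, from 231 to 1088 (2.23, limma adjusted p = 5.62e-07). Among controls alone the counts called were 3 for the teneurin list, 7 for the synaptic list and 1 for the list of the GPR22 kind and locus. In that comparison 20.9% of all genes were called. Among testosterone samples alone, where 23.1% of all genes were called, the counts were 5 for the teneurin list and 1 for the actin list.

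In the lists around RND1 and TMSB15A genes moved in both directions, and in that around GPR22 3 moved, all down. Of 20 RND, RHOA and plexin genes 3 rose and 3 fell, with a median of 0.02, and ARHGAP5, a GTPase-activating protein for RHOA, fell from 5756 to 3558 (limma adjusted p = 0.000915). The plexins PLXNB1, from 1386 to 2940, and PLXNA4, from 206 to 1065, rose (limma adjusted p = 2.59e-06 and 0.000272). Of 9 actin monomer genes CAP1, from 3699 to 7994, and TWF2 rose and MTSS1 fell (limma adjusted p = 4.11e-06, 0.0028 and 0.0204). Of 5 genes of the GPR22 kind and its locus 3 fell, the receptor GPR19 from 282 to 64.0 (limma adjusted p = 8.7e-05), COG5 from 1757 to 1204 (limma adjusted p = 0.000874) and BCAP29 from 1289 to 802 (limma adjusted p = 0.0042). Of 14 androgen-responsive genes known from other tissues 6 rose and 4 fell, where 45.6% of all genes changed. The 10 called were 5 in controls only, where 20.9% of all genes were called, and 6 without fetal control 3 or without fetal testosterone 3. CAMKK2 rose from 1388 to 3417, NDRG1 from 617 to 3137 and TSC22D3 from 614 to 1878, and FKBP4, a co-chaperone of steroid receptors, fell from 9755 to 4141 (limma adjusted p at most 5.56e-05).

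The pattern of each member over the 14 libraries, after the mean of each age was removed, was set beside that of 11836 other named genes by Pearson's r. These correlations contain the difference between treated and control libraries that chose the members, they share the libraries and their scaling, and they are given as a description. The highest was 0.91 (Spearman's rho 0.93) between TMSB15A and SLC25A43, a gene of the mitochondrial carrier family, with 0.44 over the 6 fetal and 0.98 over the 8 adult libraries. SLC25A43 had 329 to 393 in fetal controls and 343 to 406 after testosterone. In the adults it had 182 to 240 in controls and 285 to 433 after testosterone, so only its adult groups were apart, as for TMSB15A.

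For TENM1 the most alike genes were NCKAP5 (r = 0.90, rho 0.81), GPR143 (0.84, rho 0.82) and EXPH5 (0.84, rho 0.56), over 14 libraries each. For LRRN1 they were CORIN, a membrane protease that activates natriuretic peptides (0.85, rho 0.87), GPR149, a receptor with no agreed ligand (0.81, rho 0.84), and CTNND2, a delta-catenin (0.81, rho 0.85). CORIN had 633 to 960 in fetal controls and 2579 to 3723 after testosterone, and 106 to 333 and 188 to 1293 in the adults. It was higher after testosterone in the fetuses (log2 difference 2.09, limma adjusted p = 0.0218) and lower in adults than in fetuses (-2.12, limma adjusted p = 0.000602), where LRRN1 was higher.

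For LRFN5 the most alike were SLC16A9, a gene of the monocarboxylate transporter family (0.90, rho 0.77), EMB, which encodes the membrane glycoprotein embigin (0.89, rho 0.89), and FATE1 (0.88, rho 0.80). The likeness to SLC16A9 came from the adult libraries, with 0.97 over 8, and was -0.22 over the 6 fetal ones. For GPR22 they were METTL27 (0.77, rho 0.68), the kinase gene PRKD1 (0.74, rho 0.70) and CCDC170 (0.72, rho 0.59). For RND1 they were RF00560, an entry named by an RNA family (0.81, rho 0.86), METTL27 (0.74, rho 0.82) and C16orf45 (0.74, rho 0.63). Other entries share the name RF00560, and the entry meant here, ENSOARG00000023896, was sparse. Its means were 4.39 in fetal and 5.99 in adult controls, with a lowest value of 0 in both groups. TMSB15A also had ASB5 (0.82, rho 0.73) and GPR143 (0.81, rho 0.76), with 0.29 and 0.43 over the fetal libraries. By Spearman's rho SLC16A9 ranked 137 among the genes compared with LRFN5, FATE1 66, and EXPH5 73 among those compared with TENM1. GPR143 was thus shared by TENM1 and TMSB15A, and METTL27 by GPR22 and RND1.

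**Figure D4:**
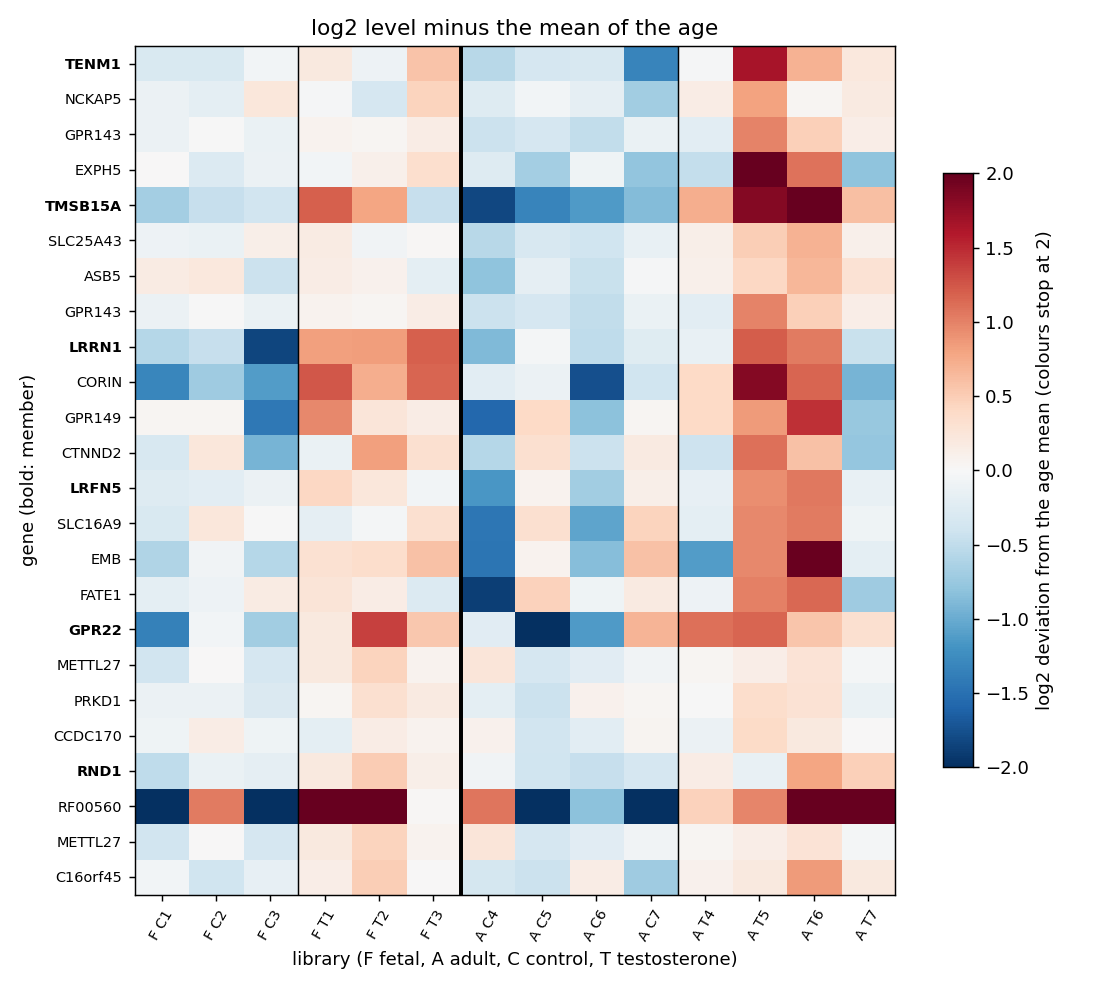
Deviation of each gene from its mean at each age, in log2 of normalized count plus 1, for 14 libraries in columns, with colours that stop at 2 on either side. Each member, in bold, is followed by the 3 genes of highest Pearson's r with it, from 0.72 to 0.91. Testosterone 5 and 6 are the high columns for LRRN1 and LRFN5 among the treated adults.

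Among the members themselves the same measure ran from 0.35 for TENM1 and GPR22 to 0.83 for TMSB15A and LRFN5 over 14 libraries. It was 0.95 for LRRN1 and LRFN5 over the 8 adult libraries, where both were highest in testosterone 5 and 6, and 0.60 over the 6 fetal ones. GPR22 and RND1 had 0.97 over the fetal libraries, where both were highest in testosterone 2, and 0.48 over the adult ones. Because all members were chosen to be higher after testosterone at both ages, correlations above 0 among them are fixed in part by the choice.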

How the data were processed

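RNA-seq of 14 whole sheep ovaries was analysed. The submitters' processing notes name Trimmomatic 0.36 for trimming and STAR 2.5.2b for alignment, and the series text gives DESeq2 for the comparison. Program of counting, build and annotation: not given in the sources used here. Deposited by the authors were 3 tables, 1 fetal and 2 adult, with a signal column per library (a DESeq2 normalized count), a log2 fold change, a p-value and an adjusted p-value. The step between values gave whole reads, to a tolerance of 0.01, for 100% of values in each library. Control 6 had fewer reads in the first adult table and was taken from the second. Libraries were joined on genes by identifier and scaled by median-of-ratios size factors.

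Tests used limma-trend (limma 3.58.1, R 4.3.3) after log2 transformation with a pseudocount of 1, on genes whose mean reached 10, with Benjamini-Hochberg adjusted p under 0.05 over all genes tested. The recovered reads were also tested with edgeR 4.0.16 (quasi-likelihood) and DESeq2 1.42.0. The limma fits were tested on simulated data. The members, the 17 gene lists and the tests were chosen with earlier results of these data known. Genes named are the 6 members, their relatives by symbol, the 3 named genes most correlated with each, OXT, MYH11 and, per list, up to 4 genes of smallest p past the threshold. COG5, SLITRK1 and the markers' sums were added because a result turns on them, SLITRK1 after its values were seen, and genes that share the members' choice (LAMA2, PDGFRA, CCNG1) were named outside the rule. Marker lists are given by counts and sums, and 1 gene of this rule is not reported here. Alternatives were no filter or a mean of 50, a pseudocount of 0.5 or 5, quantile normalization, the other tools, leaving out each library, the sample number as a block, control 6 from the first table, leaving out the libraries high in OXT, and controls only. Testosterone samples only and a scale for each age alone were added after the data were seen. Column headers mark testosterone 5 with a suffix that the labels do not explain.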

Additional observations from a re-analysis of the deposited data

How the results depend on the processing

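The age differences of the 6 genes kept their direction under all 148 values from other settings, and 3 calls were lost, all among testosterone samples alone: TENM1 at -0.97, TMSB15A at -1.68 and LRRN1 at 0.53. Leaving out 1 library gave -1.57 to -1.24 for TENM1, -2.77 to -2.32 for TMSB15A, 0.81 to 1.24 for LRRN1, -1.96 to -1.71 for LRFN5, 0.17 to 0.31 for RND1 and 0.06 to 0.55 for GPR22. Genes called with age numbered 6917, against 6047 to 7366 without 1 library, 3169 in controls only and 3499 in testosterone samples only. Genes called for testosterone in the fetuses numbered 3 with limma and 261 with DESeq2, and 0 to 13 without 1 library (0 without control 1, testosterone 1 or testosterone 2, 1 without control 2, 13 without testosterone 3). For the 8 adults they numbered 2, against 1 at a mean of at least 50, 1 with edgeR, 7 with DESeq2, 1 without the libraries high in OXT and 1 whichever library was left out. In the first and second adult tables they numbered 1 each, 0 and 0 with edgeR, 4 and 5 with DESeq2, and 0 whichever library was left out. Of the lists with age, controls only gave 3 calls in the teneurin list, 7 in the synaptic, 1 in the GPR22 and 5 in the androgen-responsive list. Testosterone samples only gave 5 in the teneurin and 1 in the actin list. Of all genes 20.9% were called in controls only and 23.1% in testosterone samples only. The androgen-responsive list had 6 without fetal control 3 or testosterone 3. The cause of these shifts was not tested.

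The sample number as a replicate block gave 10 calls in the fetuses and 0 in the 8 adults, the first and the second adult table. The numbers were not treated as pairs: deviations of same-numbered libraries correlated at -0.01 to 0.35 in the fetuses, where 2 of 6 libraries correlated best with their own number, and at -0.62 to 0.30 in the adults, where 1 of 8 did.

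The described differences between testosterone and control kept their direction throughout. In the fetuses leaving out 1 library gave 0.28 to 0.60 for TENM1 (0.28 without testosterone 3), 0.68 to 1.51 for TMSB15A (0.68 without testosterone 1), 1.47 to 2.16 for LRRN1, 0.29 to 0.52 for LRFN5, 1.07 to 1.74 for GPR22 and 0.43 to 0.63 for RND1. In the adults it gave, for the same genes in that order, 0.92 to 1.49, 2.38 to 2.78, 0.56 to 1.13, 0.60 to 1.05, 1.01 to 2.05 and 0.48 to 0.78. TMSB15A fell under the filter without testosterone 5 or 6, and had 1.65 with a pseudocount of 5. Of 54 correlations by rank or at 1 age, 41 moved and that of LRFN5 with SLC16A9 reversed, to -0.22 over the fetal libraries. Depth limits GPR22 and TMSB15A, with 1 to 3 reads of the latter in each adult control.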
